A study of Mus musculus with 19 samples.

Results

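The annexins are a family of cytosolic proteins that bind acidic phospholipids when calcium rises, each through a conserved core of repeated annexin domains and a short N-terminal tail that differs between members. They are known for linking membranes to actin, for vesicle traffic and for resealing torn plasma membranes, and several of them act in inflammation. In liver, annexins are made by hepatocytes to different degrees and by macrophages, stellate cells, endothelium and bile duct epithelium. Here the family was described by 8 genes chosen by symbol (Anxa1, Anxa2, Anxa3, Anxa4, Anxa5, Anxa6, Anxa7 and Anxa11), of 55836 genes listed. All 8 passed the filter on low counts, which left 13597 genes for testing. The 4 other annexin genes listed (Anxa8, Anxa9, Anxa10 and Anxa13) were read separately, and 2 of them passed.

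The libraries came from livers of male C57BL/6 mice without genetic change, 8 weeks old at the start, 1 library per mouse, as poly(A)-selected RNA. Mice received a control diet (CD, 10% of calories from fat) or a MASH diet (MD, with 40% of calories from fat, 20% from fructose and 2% cholesterol) for 8 weeks, and a daily gavage of vehicle (Veh, water with Tween 20) or 2 mg of polyethylene particles (PE, named Microplastics in the labels). There were 4 mice in CD + Veh, and 5 each in MD + PE, CD + PE and MD + Veh. Libraries held 10398820 to 15456729 counts, and every PE library held fewer than every vehicle library of its diet, so that 1 CPM (the count scaled to library size, with TMM factors) stood for 9.96 to 16.1 counts. As a check of the tissue label, 6 of 6 hepatocyte markers were detected in every library, with Alb the most abundant, and their sum lay between 43332 and 87653 CPM.

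Some libraries stood apart. MD + Veh replicate 1 held 2720 CPM of 6 skeletal muscle markers summed, against at most 352 CPM in any other library. MD + PE replicate 2 held 124 CPM of 7 bile duct or gallbladder markers summed, against at most 22.6 CPM elsewhere. In MD + PE replicate 4, 6 markers of lipid-associated macrophages summed to 119 CPM, against at most 43.9 CPM elsewhere. CD + PE replicate 2 held 614 CPM of 6 Kupffer cell markers, against at most 263 CPM elsewhere. Library numbers also divided the vehicle mice: Rps6-ps4, a ribosomal protein pseudogene, had 1088 to 1690 counts in libraries 39 to 45 and 0 in libraries 46 to 57, so that CD + Veh and MD + Veh replicates 1 to 3 lay on one side of the division, and MD + Veh replicates 4 and 5 and all PE libraries on the other. PE and the division cannot be told apart in CD mice. Only MD + Veh lay on both sides. With the division as a covariate, the difference between its replicates 1 to 3 and 4 to 5 was therefore applied to every group.

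Per kilobase of transcript, the scale on which genes can be compared, Anxa5 and Anxa6 were the most abundant annexins in CD + Veh, at 46.5 ± 7.05 and 43.7 ± 2.53 CPM per kilobase (SD, n = 4), which did not differ beyond their spread. Anxa7 followed at 35.8 ± 4.33, with a range that overlapped that of Anxa6. Anxa4, at 20.3 ± 1.30, and Anxa11, at 17.3 ± 1.25, overlapped slightly. Anxa2 had 7.15 ± 2.51 CPM per kilobase and overlapped none of them. The lowest were Anxa3 at 1.74 ± 0.0798 and Anxa1 at 1.16 ± 0.402, whose libraries did not overlap. In MD + Veh, Anxa2 at 21.1 ± 8.51 (n = 5) passed Anxa4 and Anxa11 in mean level while overlapping both, Anxa5 at 72.7 ± 15.1 lay clear of Anxa6, and the order of the other means was as in CD + Veh.

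**Figure D1:**
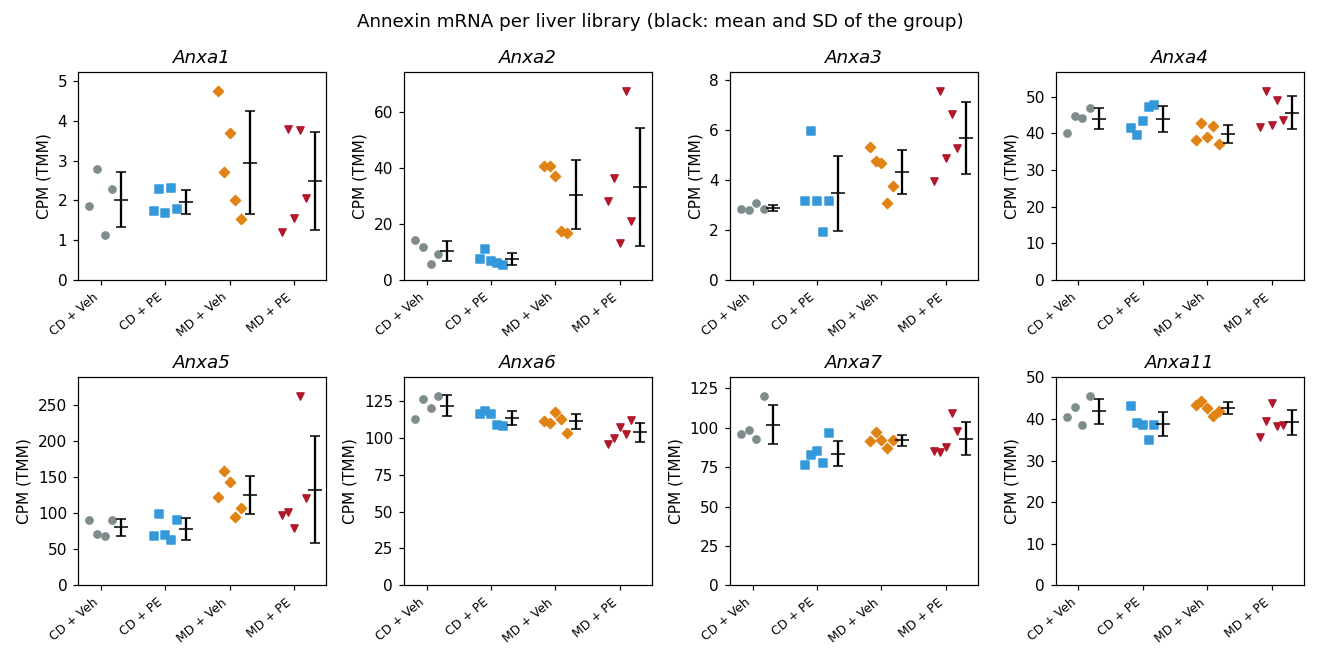
CPM of each of the 8 annexin genes (y axis, scaled by TMM and starting at 0) in every liver library, by group (x axis). Points are libraries in order of replicate number, and the black bar is the group mean with its SD. Anxa2 lies between 16.9 and 40.8 CPM in MD + Veh, above every CD + Veh library, while Anxa4, Anxa6, Anxa7 and Anxa11 keep group means within a narrow band.

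The first comparison asked what the MASH diet did in vehicle mice. Anxa2, which encodes a membrane and actin binding protein that also holds plasminogen at the cell surface, was the annexin that rose, 2.96-fold. Of the 8 annexins, 1 passed the test (an adjusted p below 0.05 and a log2 difference of at least 0.38), where 10.4% of all genes tested did. Anxa5, the protein used to stain phosphatidylserine on dying cells, and Anxa3 had every MD + Veh library above every CD + Veh library without passing. The counts by group cannot tell fewer cells of a type from less RNA per cell, since all libraries are of bulk liver.

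Anxa2 lies at chr9:69360542-69399077 on GRCm39, on the plus strand, and its canonical transcript has 13 exons. The 4 CD + Veh libraries held 14.4, 11.7, 5.91 and 9.29 CPM of Anxa2. The 5 MD + Veh libraries held 40.6, 40.8, 37.1, 17.5 and 16.9 CPM. Every MD + Veh library was higher than every CD + Veh library, and replicates 4 and 5 of MD + Veh, the 2 on the far side of the library division, were well below replicates 1 to 3. The log2 fold change was 1.57 (edgeR quasi-likelihood test, Benjamini-Hochberg adjusted p = 0.0130, SE 0.40), with a 95% interval of 0.78 to 2.35. Within libraries 39 to 45 alone, the mean was 39.5 ± 2.10 CPM in MD + Veh (SD, n = 3) against 10.3 ± 3.63 CPM in CD + Veh (n = 4). With the division as a covariate the log2 fold change was 1.93 (adjusted p = 0.00274), and over 11 alternatives it ran from 1.46 to 1.93 with adjusted p between 0.00274 and 0.0349.

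The promoters of Anxa2 and Anxa5 are shown because their levels went together most closely among the members, and Anxa2 because the study asked whether Ppara acts on it. They hold the 250 bases before the start site, from RefSeq on GRCm38.p6, at chr9:69453433-69453682 on the plus strand for Anxa2 and chr3:36475888-36476137 on the minus strand for Anxa5, written in the direction of transcription. Capitals mark matches, on either strand, to AP-1 (TGANTCA), Sp1 (GGGCGG), the TATA box (TATAAA), the CCAAT box (CCAAT), the antioxidant response element core (TGACNNNGC), the nuclear receptor half-site (AGGTCA) or the PPAR/RXR direct repeat (the half-site, any 1 base, and the half-site again), which therefore holds the half-site in it.
Anxa2: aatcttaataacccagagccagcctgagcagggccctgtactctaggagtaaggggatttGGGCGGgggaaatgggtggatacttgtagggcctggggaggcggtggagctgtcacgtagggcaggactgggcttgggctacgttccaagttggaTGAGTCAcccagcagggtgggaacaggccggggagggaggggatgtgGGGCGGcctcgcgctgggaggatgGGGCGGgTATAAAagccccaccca
Anxa5: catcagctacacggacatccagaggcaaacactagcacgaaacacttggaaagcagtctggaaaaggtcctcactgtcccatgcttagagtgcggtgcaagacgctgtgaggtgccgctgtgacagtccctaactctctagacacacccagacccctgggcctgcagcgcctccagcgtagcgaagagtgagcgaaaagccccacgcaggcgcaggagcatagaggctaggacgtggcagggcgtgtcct
In Anxa2 a TATA box began at position -17 from the start site, Sp1 letters at -24, -48 and -190, and AP-1 letters (TGAGTCA) at -95. AP-1 letters stood in 7.81% of 32851 promoters of the same 300-base window, Sp1 letters in 35.7% and the TATA box in 13.6%. The Anxa5 sequence held none of the 7 motifs. Promoters of 6 of the 8 members were matched, with 8 start sites in all, and none held the PPAR/RXR direct repeat or the half-site, which 0.0396% and 16.3% of all promoters hold. A match is only a run of letters, and its absence says nothing of binding elsewhere at the gene.

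The diet comparison was also made among mice given PE, and there too Anxa2 was the annexin that rose. CD + PE libraries held 7.56, 11.2, 6.89, 6.23 and 5.53 CPM, and MD + PE libraries 28.1, 36.5, 13.3, 67.7 and 21.0 CPM. Every MD + PE library was higher than every CD + PE library, with replicate 4 the highest of all 19 libraries. The log2 fold change was 2.15 (edgeR adjusted p = 0.00183, SE 0.39), or 4.45-fold, and all 10 libraries lay on the same side of the division. Without MD + PE replicate 4 it was 1.73, the lowest of 19 fits that each left out 1 library, in all of which Anxa2 passed. Of the 8 members, 1 passed, against 4.61% of all genes, and 1 had no overlap with CD + PE in this direction, against 2.21%. Anxa3 and Anxa5 differed by 0.70 and 0.77 on the log2 scale, each with an edgeR p above the threshold (adjusted p = 0.0839 and 0.0727). With DESeq2 both passed (adjusted p = 0.0434 for Anxa3 and 0.0212 for Anxa5, in ranges of 0.0434 to 0.192 and 0.0212 to 0.154 over 11 alternatives). Without CD + PE replicate 2, the library rich in Kupffer cell markers, Anxa3 differed by 0.99 and passed with edgeR (adjusted p = 0.00572), and without MD + PE replicate 4 Anxa5 differed by 0.37.

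**Figure D2:**
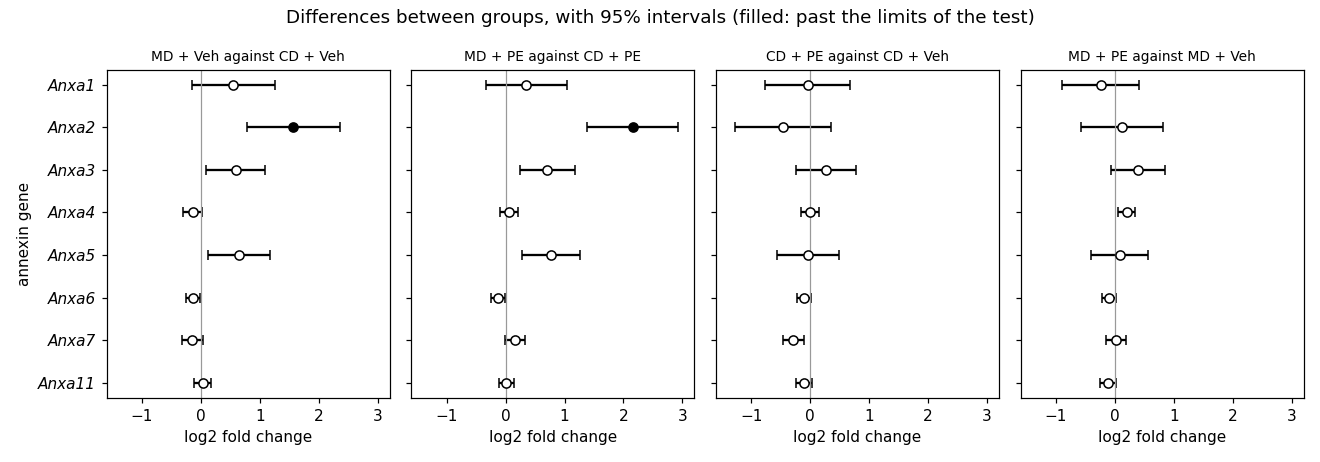
Log2 fold change of the 8 annexins (x axis) in 4 comparisons, with 95% intervals. Filled points passed both limits of the test. Anxa2 passed in both diet comparisons, at 1.57 and 2.15, and no annexin passed in either PE comparison.

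Anxa5 (GRCm39 chr3:36503072-36530126, minus strand) is the annexin nearest to Anxa2 in its pattern. The CD + Veh libraries held 90.4, 72.0, 68.0 and 91.5 CPM of Anxa5 and the MD + Veh libraries 123, 159, 144, 94.96 and 108 CPM. The groups did not overlap, as held for 3 of 8 annexins (Anxa2, Anxa3 and Anxa5) and 7.37% of all genes in this direction, and the lowest MD + Veh libraries were again replicates 4 and 5. The log2 fold change was 0.64 (edgeR adjusted p = 0.116, SE 0.27). Anxa3 (GRCm39 chr5:96940544-96993828, plus strand) had 2.86, 2.79, 3.09 and 2.83 CPM in CD + Veh and 5.32, 4.77, 4.71, 3.10 and 3.79 CPM in MD + Veh. Again no library overlapped, and again replicates 4 and 5 were lowest, with a log2 difference of 0.59 (edgeR adjusted p = 0.133, SE 0.25). Both passed when the fit held only these 2 groups. The adjusted p of Anxa5 was then 0.0171, in a range of 0.0171 to 0.149 over 11 alternatives, and that of Anxa3 was 0.0485, in a range of 0.0485 to 0.224.

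The other 5 annexins showed smaller differences between MD + Veh and CD + Veh. Anxa1, which encodes an anti-inflammatory ligand of formyl peptide receptors, had 1.14 to 2.79 CPM in CD + Veh and 1.54 to 4.75 CPM in MD + Veh, and the groups overlapped, with a log2 difference of 0.55 (edgeR adjusted p = 0.334, SE 0.36). Without MD + Veh replicate 1, the library rich in muscle markers, the Anxa1 difference was 0.33. Anxa6 and Anxa7 had 122 ± 7.05 and 102 ± 12.3 CPM in CD + Veh (SD, n = 4) and 111 ± 5.03 and 91.9 ± 3.63 CPM in MD + Veh (n = 5). In MD + PE, Anxa6, a large annexin with a duplicated core, had 95.8, 99.9, 107, 103 and 112 CPM. All of these lay below every CD + Veh library, as held for 11.3% of genes, and the difference of -0.23 on the log2 scale (adjusted p = 0.00944, SE 0.06) was under the fold limit of 0.38. The adjusted p of Anxa6 ran from 0.00461 to 0.344 over 11 alternatives, the highest with the division as a covariate, and was 0.0733 without CD + Veh replicate 4. Anxa4 (43.99 ± 2.82 to 39.8 ± 2.44 CPM) and Anxa11 (41.9 ± 3.01 to 42.6 ± 1.36 CPM) overlapped between CD + Veh and MD + Veh. The median log2 difference of the 8 annexins was 0.29 in MD + Veh against CD + Veh, where that of all genes tested was -0.0042. In MD + PE the median of the 8 was 0.25 against CD + PE and 0.05 against MD + Veh, and in CD + PE against CD + Veh it was -0.07, while the medians of all genes in these comparisons were -0.019, -0.012 and 0.0064.

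PE alone changed no annexin beyond the limits of the test. In CD + PE against CD + Veh, 0 of 8 members passed with edgeR (2.92% of all genes did), 0 with DESeq2, which gave no adjusted p for Anxa1 and Anxa3, and 1 had an unadjusted p below 0.05. That member was Anxa7, named for synexin, a membrane fusion protein, which had 102 ± 12.3 CPM in CD + Veh and 83.5 ± 8.01 CPM in CD + PE, with a log2 difference of -0.29 (edgeR adjusted p = 0.0822, SE 0.09). Over 11 alternatives its adjusted p ran from 0.0393 to 0.613, with log2 differences of -0.31 to -0.22, under the fold limit. Without CD + Veh replicate 4 the Anxa7 difference was -0.18. Anxa2 differed by -0.46 (edgeR adjusted p = 0.635, SE 0.42), with groups that overlapped and a 95% interval of -1.28 to 0.35. With 1 library left out, the Anxa2 difference ran from -0.66 to -0.24. With the division as a covariate the Anxa2 value turned to 0.74 (edgeR adjusted p = 0.669). That shift was set by MD + Veh alone, so it does not separate PE from the division in CD mice. Over 11 alternatives the adjusted p was between 0.428 and 0.770.

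The next comparison asked what PE added to the MASH diet. No annexin passed. In MD + PE against MD + Veh, 0 of 8 members passed with edgeR, 0 with DESeq2, and 1, Anxa4, had an unadjusted p below 0.05 (log2 fold change 0.20, SE 0.07, adjusted p = 0.194), where 1.08% of all genes passed. Anxa2 differed by 0.13 (edgeR adjusted p = 0.912, SE 0.35), with a 95% interval of -0.57 to 0.82. The MD + PE range of 13.3 to 67.7 CPM spanned the whole MD + Veh range. Without MD + PE replicate 4 the difference was -0.30, and across all fits that left out 1 library it ran from -0.30 to 0.33. Within libraries 46 to 57, where 2 MD + Veh libraries can be compared, MD + PE held 33.3 ± 21.0 CPM (SD, n = 5) and MD + Veh 17.2 ± 0.406 CPM (n = 2). With the division as a covariate the Anxa2 difference was 0.96 (adjusted p = 0.530, the lowest of 11 alternatives, which reached 0.952). The effect of PE in the 2 diets was compared directly by the interaction, which for Anxa2 was 0.59 (edgeR adjusted p = 0.795, SE 0.55) and 0.15 without MD + PE replicate 4. No member passed that test with edgeR or DESeq2, 1 (Anxa7) had an unadjusted p below 0.05, and 0.00735% of all genes passed.

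**Figure D3:**
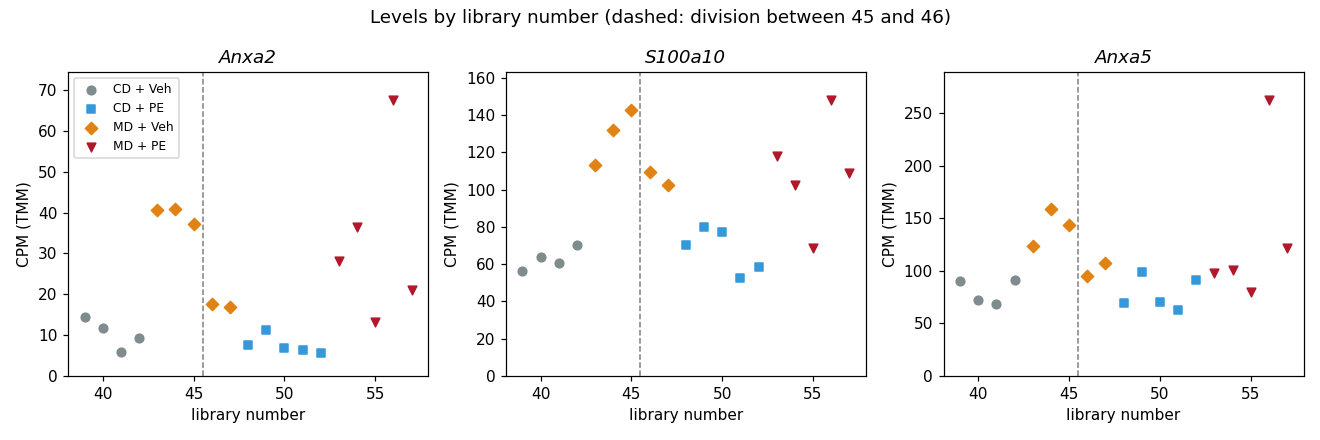
CPM of Anxa2, S100a10 and Anxa5 (y axes, scaled by TMM and starting at 0) against library number (x axis), with the division between 45 and 46 dashed. MD + Veh libraries 46 and 47 hold 17.5 and 16.9 CPM of Anxa2, below the 37.1 to 40.8 CPM of MD + Veh libraries 43 to 45.

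Against CD + Veh, the mice given both diet and PE showed 2 annexins of 8 past the limits, where 14.6% of all genes passed. Anxa2 had a log2 fold change of 1.69 (edgeR adjusted p = 0.00552, SE 0.40), although the groups overlapped through MD + PE replicate 3 at 13.3 CPM and CD + Veh replicate 1 at 14.4 CPM. These groups lie on opposite sides of the library division, and with the division as a covariate the Anxa2 value was 2.89, the highest of 11 alternatives, which began at 1.68 and had adjusted p between 0.000781 and 0.0143. Anxa3 had 3.98, 7.58, 4.87, 6.66 and 5.30 CPM in MD + PE, all above CD + Veh (7.58% of genes did not overlap in this direction), with a log2 difference of 0.97 (edgeR adjusted p = 0.0105, SE 0.26). The Anxa3 difference ran from 0.87 to 1.49 over 11 alternatives. Anxa5 had 98.3, 101, 79.9, 263 and 122 CPM in MD + PE, and its log2 fold change was 0.72 (edgeR adjusted p = 0.0622, SE 0.27). With DESeq2 it passed (adjusted p = 0.0232, in a range of 0.0232 to 0.106 over 11 alternatives). Over the same alternatives the log2 fold change of Anxa5 ran from 0.68 to 1.21. Without MD + PE replicate 4, which alone exceeded 200 CPM, the Anxa5 log2 fold change was 0.34.

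Annexin A2 works in a tetramer with p11, encoded by S100a10, and this partner also rose on the MASH diet. S100a10 (GRCm39 chr3:93462213-93474510, plus strand) had 56.5, 63.7, 60.5 and 70.4 CPM in CD + Veh and 113, 132, 142, 109.6 and 103 CPM in MD + Veh, so that no libraries overlapped. In CD + PE it had 70.0, 79.8, 77.2, 52.5 and 58.7 CPM, and in MD + PE 118, 102, 68.8, 148 and 109 CPM, where replicate 3, also the lowest for Anxa2, fell within the CD + PE range. The log2 fold change of S100a10 was 0.93 (edgeR adjusted p = 0.000976, SE 0.17) in MD + Veh against CD + Veh and 0.69 (edgeR adjusted p = 0.0111, SE 0.16) in MD + PE against CD + PE. Its 2 MD + Veh libraries on the far side of the division lay at 102.7 and 109.6 CPM, still above every CD + Veh library. S100a11, the partner of Anxa1, did not pass, at 4.91 ± 0.918 CPM in CD + Veh (n = 4) and 6.25 ± 2.54 CPM in MD + Veh (n = 5). Of 13 partners tested from a list of 16, 2 passed in MD + Veh against CD + Veh (1 higher, 1 lower), where 10.4% of all genes passed, and the lower one was Gca, encoding the calcium-binding protein grancalcin, at -0.69 (edgeR adjusted p = 0.0310, SE 0.21). Gca had 6.61 ± 0.857 CPM in CD + Veh, 4.09 ± 0.776 CPM in MD + Veh and 3.18 ± 0.740 CPM in MD + PE. S100a10 and Gca were also the 2 of 13 partners that passed in MD + PE against CD + Veh, where 14.6% of all genes passed. In MD + PE against CD + PE, S100a10 was the 1 that passed, where 4.61% of all genes did. With PE on either diet, 0 of 13 passed with edgeR and 1 had an unadjusted p below 0.05, where 2.92% of all genes passed on CD and 1.08% on MD.

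Genes of membrane repair, the process in which annexins act, were also read. Of 15 tested, 3 passed in MD + Veh against CD + Veh, 2 higher and 1 lower, where 10.4% of all genes passed. Myof, which encodes the ferlin myoferlin, had 1.90 ± 0.553 CPM in CD + Veh and 4.37 ± 1.79 CPM in MD + Veh, which differed by 1.20 on the log2 scale (edgeR adjusted p = 0.0300, SE 0.36). Chmp4c, an ESCRT-III subunit, had 4.37 ± 1.014 CPM in CD + Veh and 1.17 ± 0.424 CPM in MD + Veh and fell by 1.89 on the log2 scale (edgeR adjusted p = 0.00642, SE 0.44). Trim72, which nucleates repair patches in muscle, also passed (log2 difference 3.54, edgeR adjusted p = 0.0234) and had 19.6 CPM in the library rich in muscle markers and 0.850 to 1.73 CPM in the other MD + Veh libraries. Myof was the 1 gene of the 15 that passed in MD + PE against CD + Veh, where 14.6% of all genes passed. In MD + PE against CD + PE 0 of 15 passed with edgeR and 3 had an unadjusted p below 0.05, where 4.61% of all genes passed. For PE on either diet 0 of 15 passed with edgeR and 2 had an unadjusted p below 0.05, beside 2.92% of all genes passing on CD and 1.08% on MD.

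Some cell type markers also differed between the diets and others did not, and their part in the Anxa2 result was not tested. Of the 6 markers of lipid-associated macrophages, 2 rose in MD + Veh against CD + Veh (Gpnmb and Itgax) and 1 fell (Cd9, the most abundant). Their sum was 30.2 ± 11.01 CPM in MD + Veh and 33.4 ± 4.05 CPM in CD + Veh. Gpnmb, a glycoprotein of those macrophages, had 0.808, 0.501, 0 and 0.202 CPM in CD + Veh and 9.76, 7.06, 5.25, 1.08 and 2.47 CPM in MD + Veh, and it reached 38.0 CPM in MD + PE replicate 4. MD + PE replicate 4 and MD + Veh replicates 1 to 3 were the 4 highest MD libraries for both Gpnmb and Anxa2, while MD + PE replicate 2, next for Anxa2, had 1.60 CPM of Gpnmb. Markers of stellate cells and fibroblasts summed to 188 ± 32.7 CPM in CD + Veh and 306 ± 141 CPM in MD + Veh, with 0 of 7 passing with edgeR there and 5 at an unadjusted p below 0.05, and to 494 CPM in MD + PE replicate 4. The MD + Veh mean rests on the muscle library, at 548 CPM with Des, a filament gene that muscle also makes, the most abundant, while the other 4 MD + Veh libraries had 199.8 to 301 CPM. In the same comparison 0 of 6 Kupffer cell, 0 of 6 endothelial, 0 of 5 bile duct, 0 of 4 lymphocyte, 0 of 2 mesothelial and 0 of 1 neutrophil markers tested passed with edgeR, of which 1 Kupffer cell marker had an unadjusted p below 0.05. The summed Kupffer cell markers nevertheless did not overlap, at 81.3 to 146 CPM in CD + Veh and 169 to 263 CPM in MD + Veh, and 3 of the 6 had every MD + Veh library above every CD + Veh library, as held for 7.37% of all genes. In contrast, 6 of 6 muscle markers, Cfd and Cidec of the 4 adipocyte markers and 1 of 2 intestinal markers tested (Fabp2) rose and 2 of 6 hepatocyte markers (Alb and Apoa1) fell, where 10.4% of all genes passed. The other 2 adipocyte markers, Adipoq and Plin1, were too low to be tested, with 4.18 and 3.99 CPM in the muscle library, MD + Veh replicate 1, and at most 0.557 CPM in any other library. Of the intestinal markers, Lgals4 did not rise, at 11.9 ± 3.84 CPM in CD + Veh and 9.98 ± 2.16 CPM in MD + Veh. Vil1, Cdh17 and Cdx1 were too low to be tested, with MD + Veh means of at most 0.148 CPM. In MD + PE against CD + Veh, 4 of 6 hepatocyte markers fell, and 3 of 6 macrophage, 2 of 7 stellate cell, 2 of 6 endothelial, 1 of 2 intestinal and the same 2 of 4 adipocyte markers rose, where 14.6% of all genes passed. In MD + PE against CD + PE, 3 of 6 hepatocyte markers fell, and 2 of 6 macrophage, 1 of 7 stellate cell, 1 of 2 intestinal and again Cfd and Cidec of the adipocyte markers rose, where 4.61% of all genes passed. Bile duct markers were highest in MD + PE replicate 2, where Anxa2 was 36.5 CPM. Replicates 1, 3, 4 and 5 of that group had 28.1, 13.3, 67.7 and 21.0 CPM of Anxa2. Muscle markers summed to 2720, 172, 114, 13.2 and 1.85 CPM in MD + Veh replicates 1 to 5. Anxa2 in the same libraries was 40.6, 40.8, 37.1, 17.5 and 16.9 CPM. CD + PE replicate 1 had 352 CPM of muscle markers and 7.56 CPM of Anxa2. The part of muscle in these values was not tested. Without both the muscle library and MD + PE replicate 2, the Anxa2 log2 fold change in MD + Veh against CD + Veh was 1.46 (adjusted p = 0.0349).

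Over all 19 libraries the genes whose log2 CPM went most closely with Anxa2 among 9393 genes were Lgals3 (r = 0.93), Cidec (r = 0.92) and Srxn1 (r = 0.92), and with Anxa5 Psap, Hexa and Srxn1 (each r = 0.91). Lgals3 encodes galectin-3, Cidec a protein of lipid droplets, Srxn1 sulfiredoxin, and Psap and Hexa are lysosomal. Anxa2 and Anxa5 had r = 0.86. These are descriptions over 19 libraries that differ in diet, depth and cell makeup, and carry no test.

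Since the study asked whether Anxa2 follows Ppara, the nuclear receptor of fatty acid oxidation, the pair was compared across libraries. The study drew on central hepatocytes, binding of the receptor, agonists and loss of its function. Levels of mRNA in whole liver measure none of these. Ppara itself did not pass with edgeR or DESeq2 in any of the 6 comparisons, and 1 (MD + PE against CD + Veh, log2 difference 0.31) had an unadjusted p below 0.05 with DESeq2 (DESeq2 adjusted p = 0.127). It had group means of 90.6 ± 10.8 CPM for MD + PE, 88.3 ± 16.6 CPM for MD + Veh, 82.5 ± 15.3 CPM for CD + PE and 73.97 ± 10.4 CPM for CD + Veh. Of 14 genes on a list of Ppara and its targets, 7 rose in MD + Veh against CD + Veh, where 10.4% of all genes passed in either direction, and in MD + PE against CD + PE 1 rose and 1 fell, where 4.61% passed. In MD + PE against CD + Veh 7 rose and 1 fell, where 14.6% of all genes passed. Cyp4a10, a fatty acid hydroxylase, rose by 2.45 on the log2 scale in CD + PE against CD + Veh (edgeR adjusted p = 0.0191, SE 0.56). For PE on the MASH diet, where 1.08% of all genes passed, 0 of 14 passed with edgeR and 4 had an unadjusted p below 0.05. Within the 9 CD libraries, log2 CPM of Anxa2 and Ppara had r = -0.70 (exact permutation test, two-sided, p = 0.0388, adjusted over 3 relations p = 0.116) and rho = -0.73 (exact p = 0.0311, adjusted p = 0.0934). When the 2 libraries with the most extreme Ppara were left out, r was -0.58 (exact p = 0.177), and neither r nor rho passed after adjustment. Within the 10 MD libraries r was -0.48 (permutation p = 0.159, adjusted p = 0.238) and rho -0.30 (permutation p = 0.406, adjusted p = 0.609), and without the 2 farthest r was -0.27 (exact p = 0.516). Within MD libraries 46 to 57 (n = 7), r was -0.47 (exact p = 0.290). Over all 19 libraries, in which the diets overlap in Anxa2 only through CD + Veh replicate 1 and MD + PE replicate 3, r was 0.050 (permutation p = 0.839, adjusted p = 0.839) and rho 0.074 (permutation p = 0.766, adjusted p = 0.766), and without the 2 farthest r was -0.019. With group means subtracted the sign turned, to r = -0.53 (permutation within groups, p = 0.0208) and rho = -0.52 (permutation p = 0.0377), neither adjusted.

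**Figure D4:**
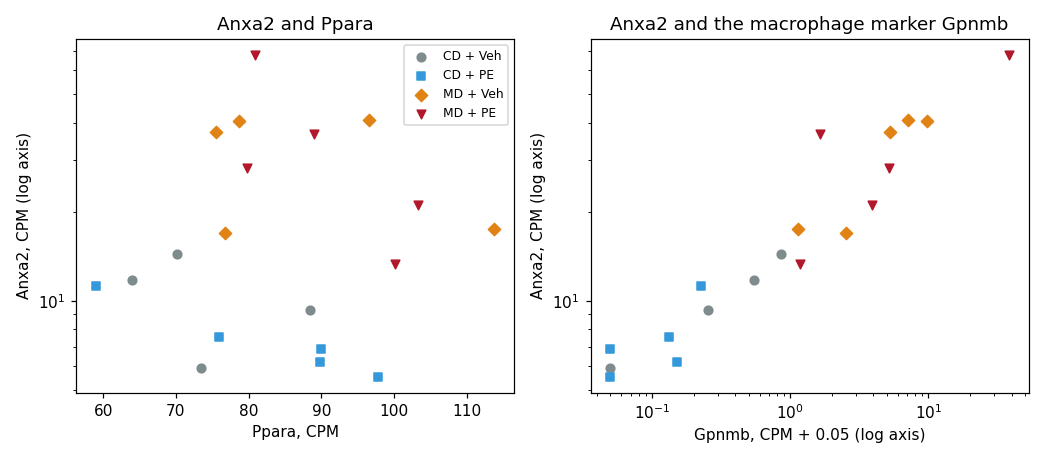
Anxa2 (y axes, CPM on a log axis) against Ppara (left, CPM) and against Gpnmb (right, CPM + 0.05 on a log axis) in each of the 19 libraries, by group. MD + PE replicate 4 has the most Anxa2, at 67.7 CPM, and the most Gpnmb, at 38.0 CPM. Gpnmb was chosen after its values were seen. Ppara spans 59.0 to 114 CPM, with r of Anxa2 below 0 within each diet. Neither r passed after adjustment (permutation tests, adjusted p = 0.116 within CD and 0.238 within MD).

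Of the annexins outside the 8, Anxa9 and Anxa13 passed the filter, with group means between 0.643 and 1.51 CPM, and neither passed a test in any comparison. Anxa8 had at most 0.996 CPM in a library. Anxa10 had 261 counts (21.98 CPM) in MD + PE replicate 2, 7 in replicate 3 and 1 in replicate 4, and 0 counts in the other 16 libraries. The library with the most Anxa10 was the one with the most bile duct or gallbladder markers, of which Krt19, a keratin of duct epithelium, had 58.7 CPM there and at most 8.17 CPM elsewhere. The same library had the highest sum of 5 intestinal markers, 203 CPM against at most 131 CPM elsewhere, with 52.2 CPM of Lgals4, 22.7 CPM of Vil1 and 10.02 CPM of Cdh17. The part of either set of markers in the Anxa10 counts was not tested.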

How the data were processed

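Livers of 19 mice in 4 groups were read from one table of the series, and groups were taken from the labels. Per the labels and the paper's methods, the authors trimmed reads with fastp (0.23.4 in the submitters' processing notes), estimated transcript abundance with Salmon (1.10.3 there) against GENCODE for GRCm39 and summed it by gene (tximport). What they deposited is estimated counts in whole numbers, not normalized, with a column per mouse.

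The tests were run with edgeR 4.0.16 in R 4.3.3, using TMM, filterByExpr, a quasi-likelihood fit to all 19 libraries with 1 coefficient per group, and Benjamini-Hochberg adjustment over 13597 genes. A gene passed if its adjusted p was below 0.05 and its log2 difference at least 0.38 in size, as in the study's methods. DESeq2 1.42.0, the study's tool, was an alternative, run with the others named at the end. The SE is the size of the log2 fold change divided by the square root of F. Log2 CPM used a prior count of 2, and permutation tests 100000 draws or every order below 10 libraries. Simulated data were used to check the fit. Positions are from GENCODE vM39 and levels per kilobase use the canonical transcript. The depth was 10398820 to 15456729 counts per library, and counting error at low CPM is not separated from the spread between mice.

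No 2 libraries of a group were copies (at most 1.85% of genes identical over 36 pairs). The annexins, lists and tests were chosen with earlier results of these data known. Named genes were all 8 members, the other annexins, up to 6 list members called most often, and the 3 genes nearest in pattern. Lists covered annexin partners, membrane repair, Ppara targets and cell type markers. The marker genes singled out and Rps6-ps4 were chosen after their values were seen. One result of the Ppara target list is not reported here.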

Additional observations from a re-analysis of the deposited data

Results flagged for a closer look

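Anxa5 in MD + PE replicate 4 was 263 CPM, where the other 4 libraries of the group lay between 79.9 and 122 CPM, and its gap to the nearest library took up 0.771 of the group's range. Of 36 groups tested this way, 1 stood out, and chance flags about 1 in 20. The same library had 119 CPM of lipid-associated macrophage markers, and their part in the value was not tested.

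Anxa10, which lay outside the comparisons because it passed no filter on low counts, was 21.98 CPM in MD + PE replicate 2 and 0.609 CPM in MD + PE replicate 3, above every vehicle library, all of which were at 0 counts.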

How the results depend on the processing

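With each other setting, the annexins kept direction and side of the threshold in 434 of 450 values, and with 1 library left out in 745 of 779. Anxa2 passed in both diet comparisons and in MD + PE against CD + Veh, and Anxa3 in the latter, under every alternative run and in 19 of 19 fits that left out 1 library. The cause of the changes below was not tested. Depth was low for Anxa1, at 15 to 75 counts per library, and Anxa3, at 19 to 97.

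DESeq2 called 85 genes for the interaction, against 1, and 296 for PE on MD (MD + PE against MD + Veh), against 147. In MD + PE against CD + PE it called 3 annexins (Anxa2, Anxa3 and Anxa5). How many of all genes DESeq2 called there is not given here, so no share stands beside the 3. Without a minimum fold, 964 genes passed in MD + PE against CD + PE. Fitting only the 2 groups gave 3 annexins in MD + Veh against CD + Veh, and how many of all genes that fit called there is not given here. For PE on MD the same kind of fit gave 73 genes. With the division of library numbers as a covariate, 37 genes passed for PE on CD (CD + PE against CD + Veh), 930 in MD + PE against CD + Veh, 33 for PE on MD and 54 for the interaction. With MD + Veh replicate 1 and MD + PE replicate 2 left out together, 58 passed for PE on MD and 0 for the interaction.

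For PE on CD the division turned the log2 difference of Anxa1 to 1.01, Anxa2 to 0.74, Anxa4 to 0.0085 and Anxa5 to 0.45, and for PE on MD that of Anxa1 to 0.49. The size of these shifts was set by MD + Veh alone. On CD, thinning to the smallest library turned Anxa1 to 0.022, and Anxa4 became 0.0077 with only the 2 groups and 0.0073 without those 2 libraries. The r of Anxa2 and Ppara over all libraries was -0.019 without the 2 farthest libraries and -0.53 with group means subtracted, and within CD it was -0.58 and -0.67.

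The labels share replicate numbers across groups, but same-numbered libraries did not deviate together (27 pairs, median r 0.067, above 0.1 in 8), so they were taken as unpaired. With the replicate number as a block, 41 genes passed for the interaction, and for PE on CD Anxa1 turned to 0.083 and Anxa4 to 0.00019. The pairing changed no other call of an annexin, and Anxa2 was 1.74 (adjusted p = 0.00469) in MD + Veh against CD + Veh.

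With each library left out in turn, the genes called ran from 215 to 426 for PE on CD, 56 to 243 for PE on MD, 505 to 987 in MD + PE against CD + PE and 0 to 3 for the interaction. They ran from 1019 to 1652 in MD + Veh against CD + Veh and from 1618 to 2174 in MD + PE against CD + Veh. The annexins called ran from 1 to 2 in MD + Veh against CD + Veh, 2 to 3 in MD + PE against CD + Veh and 1 to 3 in MD + PE against CD + PE. Log2 differences that crossed 0 for PE on CD were those of Anxa1 (-0.24 to 0.15), Anxa3 (-0.017 to 0.43), Anxa4 (-0.036 to 0.042) and Anxa5 (-0.14 to 0.043). For PE on MD they were those of Anxa1 (-0.44 to 0.0049), Anxa2 (-0.30 to 0.33), Anxa5 (-0.32 to 0.22) and Anxa7 (-0.039 to 0.048), with the lowest values of Anxa2, Anxa5 and Anxa7 reached without MD + PE replicate 4. Anxa11 ran from -0.013 to 0.082 in MD + Veh against CD + Veh and from -0.032 to 0.053 in MD + PE against CD + PE. The r of Anxa2 and Ppara ran from -0.81 to -0.62 within CD, -0.69 to -0.37 within MD and -0.015 to 0.14 over all libraries.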
